A study of Aspergillus luchuensis with 6 samples.

Results

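The antisense start sites described here are weak transcription starts that lie inside the first stretch downstream of a strong promoter and point back towards it. They were found in a CAGE data set (cap analysis of gene expression) of mycelia from Aspergillus luchuensis mut. kawachii, the white koji fungus. CAGE sequences a short tag from the capped end of each RNA, so tags show where transcription starts and how much each start is used. The groups were 3 libraries labelled as the laeA disruptant, with the strain label sirD, and 3 libraries of the control strain ctrl345. All cultures were grown with shaking at 30 °C, for 36 h in M medium and then for 12 h in CAP medium. Whether the strains share a parent, and whether each strain is 1 clone, is not stated in the labels, so the comparison is between strains. The labels do not say that the libraries of a strain came from separate cultures, so p-values measure the spread between these libraries, which may be technical.

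Tag positions with a pooled level of at least 0.1 CPM (counts per 1e6 tags, here over all 6 libraries together) were joined into clusters within a strand when no more than 20 bp separated them. A sense cluster was any cluster of at least 20 CPM. An antisense start was a cluster of 1 to 20 CPM on the opposite strand whose dominant position, the position with the most tags, lay 300 to 1500 bp downstream of the dominant position of a sense cluster. Scaffold DF126582.1, which is rich in tags, and contigs outside the DF scaffolds were left out. The rule gave 425 antisense starts, among 21824 clusters of at least 1 CPM in the whole data set, and paired them with 289 of the 4594 sense clusters on these scaffolds. The members were chosen by pooled level and position, so these are given as a description without a test. The change between genotypes was not used in the choice, but a cluster could pass either limit through 1 strain alone. The mean of 1 strain was under 1 CPM for 74 antisense starts, and for 54 the mean of the sense partner in 1 strain was under 20 CPM.

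An antisense RNA is transcribed from the strand opposite a gene and can overlap its message over part or all of its length. In fungi such RNAs often start within genes or near their far ends, where a gap between nucleosomes exposes the DNA. In budding yeast, histone methylation by Set2 and deacetylation by the Rpd3S complex keep such internal starts low in transcribed genes. LaeA is a putative methyltransferase that acts with the velvet proteins VeA and VelB in Aspergillus species, and it is known for its control of secondary metabolism. The table of start positions pairs no position with a gene, and the gene list at hand belonged to another assembly, so the starts are named by scaffold and position. For the same reason laeA itself could not be looked up, and its level is not given.

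The disruptant libraries held 14.8 to 17.3 M tags and the control libraries 18.0 to 19.3 M. Scaffold DF126582.1 took 7.49% to 17.3% of tags in disruptant libraries and 9.42% to 17.2% in control libraries. A floor of 3 tags corresponded to 0.156 to 0.207 CPM in disruptant libraries and 0.153 to 0.180 CPM in control libraries on the scaled library sizes used for levels below. Tags carry no molecular identifiers, so floors and counting intervals cover counting error only. These are bulk RNA samples, in which fewer cells that use a start cannot be told apart from fewer RNAs per cell.

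The window that defines the antisense starts is the part of the surroundings of strong promoters with the fewest opposite-strand starts. Over all strong clusters, the count of opposite-strand clusters of 1 to 20 CPM was highest 200 to 100 bp upstream, at 432 in that 100 bp bin. That is the place of divergent starts, which leave the same promoter in the other direction. It was lowest 700 to 800 bp downstream, with 24 clusters in the bin, and reached 122 clusters in the last bin, 2900 to 3000 bp downstream. Per 100 strong clusters and 100 bp, the window 300 to 1500 bp downstream held 0.853 opposite-strand clusters, and the mirrored window 300 to 1500 bp upstream held 4.86, which is 5.70 times as many. On the same strand the downstream window held 8.52 clusters of 1 to 20 CPM, 9.99 times the opposite-strand figure. Weak starts inside the downstream window thus lay mostly on the sense strand. The density also varied along the window, with 0.860 opposite-strand clusters from 300 to 700 bp, 0.577 from 700 to 1100 bp and 1.12 from 1100 to 1500 bp. These are counts on pooled libraries and were not tested.

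**Figure D1:**
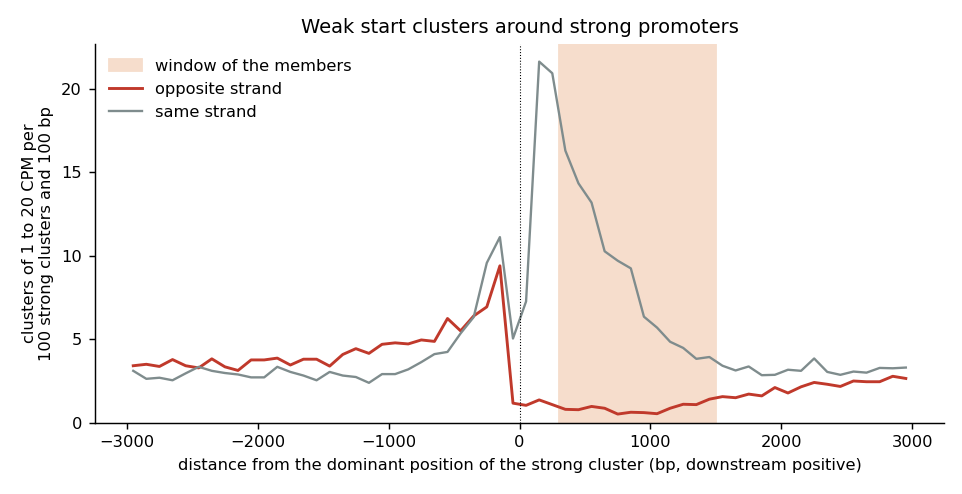
Clusters of 1 to 20 CPM in 100 bp bins around the dominant position of each strong cluster (at least 20 CPM), per 100 strong clusters, on the opposite strand (red) and on the same strand (grey). The shaded window of 300 to 1500 bp downstream holds 0.853 opposite-strand clusters per bin and 8.52 same-strand clusters.

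Antisense starts were found on 49 scaffolds, 218 on the plus strand and 207 on the minus strand. Their median distance to the sense start was 992 bp. Just inside the limits lay a start 302 bp downstream on DF126460.1 and one 1499 bp downstream on DF126449.1, and just outside lay clusters 298 bp downstream on DF126486.1 and 1501 bp downstream on DF126459.1. By level, the weakest member had 1.01 CPM and the strongest 19.9 CPM, and the nearest clusters beyond the limits had 0.9997 and 20.7 CPM. The median was 2.39 CPM, against a median of 48.3 CPM for the sense partners. The ratio of antisense to sense level had a median of 4.77%. It ran down to 0.0357% and up to 73.4%. It was under 1% in 55 pairs and at least 50% in 10.

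The signal of these starts was low, and nearly all had tags in every library. Of the 425, 422 had a tag in each of the 6 libraries and 419 had at least 3 tags in each. The pooled limit of 1 CPM makes such counts likely, so they are a description. The median antisense start held 48, 42 and 38 tags in disruptant libraries 1, 2 and 3 and 46, 40 and 36 tags in control libraries 1, 2 and 3. The clusters had a median length of 30 bp and a dominant position that held a median of 26.8% of their tags. Other clusters of 1 to 20 CPM, outside both windows, had a median length of 32 bp and a dominant share of 28.3%, so the shapes were alike in these medians. For 309 antisense starts (72.7%) the dominant position was the same base in the pooled disruptant and the pooled control libraries. For the other clusters of that level the same base was dominant in 74.9%. A set of 12 antisense starts consisted of 1 position each.

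The antisense starts differed among themselves in what lay around them. In 184 (43.3%) a cluster of at least 1 CPM on the sense strand started within 500 bp behind them, so that the pair diverged. In 36 (8.47%) that cluster was itself at least 20 CPM, a second strong promoter in the sense direction. Among the opposite-strand clusters of the mirrored upstream window, 38.8% had a divergent cluster within 500 bp and 20.2% a strong one. Among other clusters of 1 to 20 CPM outside both windows, 20.9% had a divergent cluster within 500 bp and 4.40% a strong one. A strong cluster on their own strand lay within 500 bp of 56 antisense starts (13.2%), 39 of them upstream and 17 ahead, against 27.8% of the other clusters. The remaining 205 (48.2%) had neither neighbour. The rule fixes part of these surroundings, so the shares are a description.

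Disruption of laeA went with a change in level of 56 antisense starts. Of the 425, all of which passed the filter on low counts, 39 rose and 17 fell in the disruptant (edgeR's quasi-likelihood test with Benjamini-Hochberg adjustment over all clusters tested, adjusted p under 0.05). That is 13.2% of the antisense starts, where 8.11% of all 21803 clusters tested were called. The rises were 9.18% of the antisense starts, where 4.10% of all clusters were called higher, and the falls were 4.0%, where 4.0% of all clusters were called lower. Their median log2 fold change (disruptant over control) was 0.31 and that of all clusters was -0.01. The falls stood at the background share, and the excess over it was on the side of the rises. No test of that excess was made. Of the calls, 9 rises and 12 falls had a mean under 1 CPM in the strain where they were lower, so these entered through the other strain. The calls moved with single libraries: there were 37 without disruptant library 1, 26 without disruptant library 2, 24 without disruptant library 3, 27 without control library 1 and 26 without control library 2. In these 5 fits there were 13 to 22 rises and 11 to 15 falls, with 13 of each without control library 2, while 3.41% to 5.86% of all clusters were called. Without control library 3 there were 60 calls, 38 rises and 22 falls, while 10.3% of all clusters were called. In every fit that left out 1 library, 20 of the 56 were called.

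The shift towards higher levels was spread over many antisense starts and was small in most. In 137 antisense starts (32.2%) every disruptant library lay above every control library, where 16.3% of all clusters did. In 47 (11.1%) every disruptant library lay below every control library, where 13.0% of all clusters did. An estimated log2 fold change above 0 was found for 277 antisense starts (65.2%), against 48.6% of all other clusters of 1 to 20 CPM, whose median was -0.02. The median antisense start had 2.50, 2.77 and 2.62 CPM in disruptant libraries 1, 2 and 3 and 2.42, 2.04 and 2.16 CPM in control libraries 1, 2 and 3. All 3 disruptant medians were above the 3 control medians, by less than 1 CPM. The median log2 fold change of the antisense starts stayed between 0.23 and 0.39 when each library was left out in turn.

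The median shift was not the same along the window. The median log2 fold change was 0.42 for the 110 antisense starts from 300 to under 600 bp, 0.43 for the 80 from 600 to under 900 bp, 0.22 for the 83 from 900 to under 1200 bp and 0.11 for the 152 from 1200 to 1500 bp. Rises and falls were 9 and 4 in the nearest stretch, 10 and 3 in the next, then 6 and 2, and 14 and 8 in the farthest. These calls were 11.8%, 16.25%, 9.64% and 14.5% of the starts in each stretch, where 8.11% of all clusters were called. The share called thus did not fall steadily with distance as the median did from 600 bp on. By neighbourhood, the 184 antisense starts with a divergent sense-strand cluster had a median of 0.45, with 18 rises and 5 falls (12.5% called). The 205 with no such neighbour and no strong cluster on their own strand had a median of 0.23, with 20 rises and 11 falls (15.1%). The 56 near a strong cluster on their own strand had a median of -0.27, with 1 rise and 2 falls (5.36%). These starts therefore leaned the other way in their median, and too few were called to give a direction. By level, the median was 0.24 for the 177 of 1 to 2 CPM, 0.33 for the 131 of 2 to 5 CPM and 0.33 for the 117 of 5 to 20 CPM. Rises and falls were 9 and 6 at 1 to 2 CPM, 13 and 5 at 2 to 5 CPM, and 17 and 6 at 5 to 20 CPM, which is 8.47%, 13.7% and 19.7% of these starts. Other clusters of the same levels were called in 6.90%, 8.73% and 8.89%. The mirrored upstream window had a median of 0.05 with 107 rises and 73 falls among 2265 clusters tested (7.95% called). None of the differences between these groups of starts was tested.

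**Figure D2:**
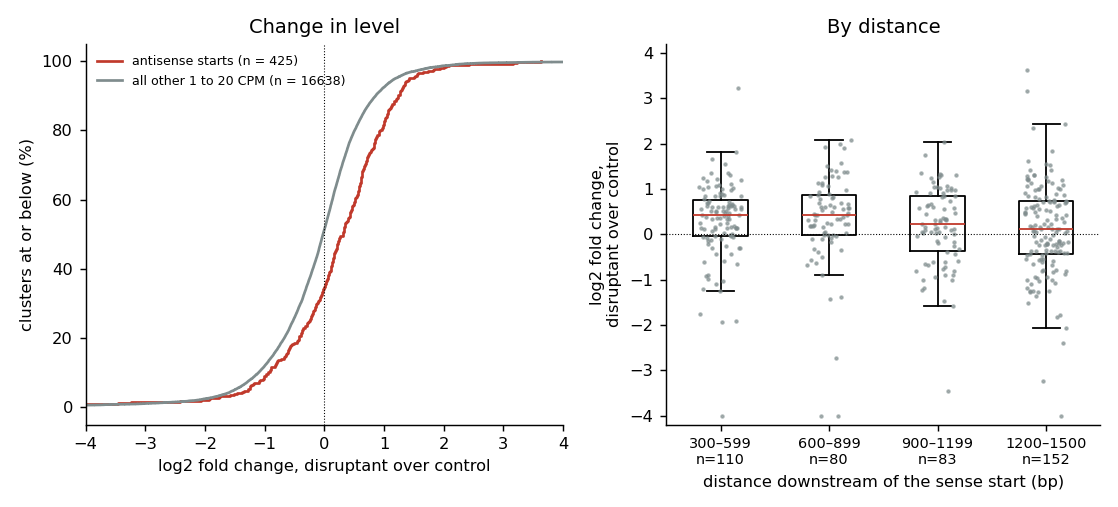
Left, the cumulative share of clusters (%) by log2 fold change (disruptant over control, shown from -4 to 4) for the 425 antisense starts in red and all 16638 other tested clusters of 1 to 20 CPM in grey. Right, the log2 fold change of the antisense starts by distance downstream of the sense start (bp), with the median in red, the quartiles as boxes, whiskers to 1.5 times the box, a point for each start and values below -4 drawn at -4, where the median is 0.42, 0.43, 0.22 and 0.11 from the nearest stretch to the farthest.

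The largest falls included 3 neighbouring antisense starts opposite 1 unchanged promoter. They lie on the minus strand of scaffold DF126470.1, 359, 605 and 770 bp downstream of the sense cluster at positions 325291 to 325489 of the plus strand. The nearest, at positions 325706 to 325808, had 0.156, 0.329 and 0.207 CPM in disruptant libraries, against 19.8, 7.23 and 17.0 CPM in control libraries. Its groups did not overlap and its log2 fold change was -5.97 (SE 0.52, edgeR adjusted p = 0.000475). The next, at positions 325994 to 326034, held 0, 1 and 3 tags in disruptant libraries and 113, 44 and 73 tags in control libraries. This was a 50.8-fold lower level in the disruptant, with a 95% exact counting interval of 19.6 to 188 (edgeR adjusted p = 0.00265, log2 fold change -5.54, SE 0.73). The third, at positions 326059 to 326171, had 0.261, 0.527 and 0.551 CPM in disruptant libraries and 18.1, 9.11 and 15 CPM in control libraries (edgeR adjusted p = 0.000381, log2 fold change -4.99, SE 0.41). All 3 were thus close to silent in the disruptant and well above the floor in each control library. Each averaged under 1 CPM in the disruptant and so met the limit of 1 CPM through the control. The same holds for all 8 of the largest falls, so the choice of members favours their fall.

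The same locus held starts that did not pass the test. The sense partner had 306 to 366 CPM in disruptant libraries and 346 to 434 CPM in control libraries. Its groups overlapped and it was not called (edgeR adjusted p = 0.541, log2 fold change -0.20, SE 0.19). Another antisense start, 1319 bp downstream at positions 326687 to 326721, had a log2 fold change of -0.45 (SE 0.31, edgeR adjusted p = 0.409). The nearest strong cluster on the minus strand, at positions 325187 to 325280 on the other side of the sense start, had a log2 fold change of -0.30 (edgeR adjusted p = 0.37). The fall at this locus was therefore called for the 3 starts between 359 and 770 bp and for none of these neighbours.

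The remaining large falls also lay opposite sense partners that were not called. On DF126479.1, minus strand, positions 75470 to 75497, an antisense start 1421 bp downstream had 0 tags in each disruptant library and 33, 40 and 42 tags in control libraries. Its level was at least 11.2-fold lower in the disruptant, taking the floor of 3 tags in each library (edgeR adjusted p = 0.00173). On DF126468.1, plus strand, position 70402, an antisense start made of 1 position had 1.04, 0.527 and 0.688 CPM in disruptant libraries and 8.12, 8.70 and 8.57 CPM in control libraries (edgeR adjusted p = 0.00061, log2 fold change -3.46, SE 0.32). The control values agreed closely and lay far above all disruptant values. A second antisense start opposite the same sense cluster, at positions 70099 to 70252, also fell (edgeR adjusted p = 0.00878, log2 fold change -1.27, SE 0.22). A strong plus-strand cluster 603 bp upstream of position 70402, with 319 CPM pooled, was not called (log2 fold change 0.10, edgeR adjusted p = 0.834).

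Of the other 3 falls, the start at positions 603773 to 603781 on the minus strand of DF126453.1 had 0.365, 0.263 and 0.275 CPM in disruptant libraries and 2.42, 1.68 and 2.10 CPM in control libraries (edgeR adjusted p = 0.00342, log2 fold change -2.73, SE 0.38). A sense-strand cluster 200 bp behind it fell with it (log2 fold change -2.14, edgeR adjusted p = 0.0041), so a divergent pair moved together there. The start at positions 433453 to 433475 on the minus strand of DF126467.1 had 0.574, 0.593 and 1.03 CPM in disruptant libraries and 3.11, 4.12 and 4.43 CPM in control libraries (edgeR adjusted p = 0.00462, log2 fold change -2.41, SE 0.35). A sense-strand cluster 93 bp behind it was not called (log2 fold change -1.69, edgeR adjusted p = 0.0801). The start at positions 428978 to 429022 on the plus strand of DF126454.1 held 10, 1 and 0 tags in disruptant libraries and 41, 50 and 26 tags in control libraries. Its level was 9.40-fold lower in the disruptant, with a 95% exact counting interval of 5.07 to 19.3 (edgeR adjusted p = 0.0321, log2 fold change -3.24, SE 0.74). That call is the least firm of the 8, since the edgeR adjusted p was 0.0972 without disruptant library 2, 0.0901 without disruptant library 3, 0.106 without control library 1 and 0.103 without control library 2. The sense partner of this start averaged 14.5 CPM in the disruptant and 37.5 CPM in the control (log2 fold change -1.37, edgeR adjusted p = 0.233). It met the limit of 20 CPM through the control, and the change of the ratio was not called (edgeR adjusted p = 0.133).

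The largest rises were smaller than the largest falls, and 4 of the 8 lay opposite a sense partner that rose too. The 3 partners concerned averaged 92.8, 161 and 61.3 CPM in the disruptant and 19.3, 7.49 and 12.6 CPM in the control, on DF126494.1, DF126463.1 and DF126458.1. They met the limit of 20 CPM only through the disruptant, so the choice of pairs favours their rise and the joint rises are given as values. The largest and another of the 8 stood side by side on the plus strand of DF126494.1, opposite the sense cluster at positions 113158 to 113204. They lie close enough that a join of up to 50 bp would make them 1 cluster. The start 1426 bp downstream, at positions 111758 to 111766, held 51, 21 and 32 tags in disruptant libraries and 5, 2 and 2 tags in control libraries. Its level was 13.1-fold higher in the disruptant, with a 95% exact counting interval of 6.63 to 29.4 (edgeR adjusted p = 0.00316, log2 fold change 3.63, SE 0.50). The start 1473 bp downstream, at positions 111710 to 111729, held 55, 14 and 38 tags in disruptant libraries and 3, 7 and 3 tags in control libraries (edgeR adjusted p = 0.0113, log2 fold change 3.16, SE 0.57). Its edgeR adjusted p was 0.0556 without disruptant library 3 and 0.0631 without control library 1. Their sense partner had 91.8, 95.5 and 91.2 CPM in disruptant libraries and 22.7, 14.5 and 20.8 CPM in control libraries, a rise with a log2 fold change of 2.26 (SE 0.22, edgeR adjusted p = 0.000688). Both antisense starts averaged under 1 CPM in the control, so all 3 clusters of this locus passed their limits through the disruptant.

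A joint rise with another balance was seen on DF126463.1. The plus-strand start at positions 681989 to 682034, 1206 bp downstream, had 9.70, 16.2 and 12.6 CPM in disruptant libraries and 2.21, 2.80 and 2.52 CPM in control libraries (edgeR adjusted p = 0.00149, log2 fold change 2.35, SE 0.27). Its sense partner at positions 683115 to 683314 had 124, 242 and 116 CPM in disruptant libraries and 6.43, 7.79 and 8.27 CPM in control libraries (edgeR adjusted p = 0.000288, log2 fold change 4.42, SE 0.34). The antisense start rose less than its partner. A strong sense-strand cluster 285 bp behind the antisense start, with 234 CPM pooled, rose as well (log2 fold change 4.64, edgeR adjusted p = 0.000323). On DF126458.1, minus strand, positions 544488 to 544553, the antisense start had 6.52, 7.64 and 7.50 CPM in disruptant libraries and 1.74, 2.09 and 1.26 CPM in control libraries (edgeR adjusted p = 0.00298, log2 fold change 2.08, SE 0.28). Its partner rose by a like factor (edgeR adjusted p = 0.0101, log2 fold change 2.29, SE 0.40).

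Opposite the other 4 of the largest rises the sense partner was not called. All of these starts except that at positions 972404 to 972436 averaged under 1 CPM in the control. They met the limit of 1 CPM through the disruptant, so the choice of members favours their rise. On DF126451.1, minus strand, positions 1388382 to 1388397, an antisense start 506 bp downstream had 2.97, 4.35 and 5.23 CPM in disruptant libraries and 0.580, 0.153 and 0.599 CPM in control libraries (edgeR adjusted p = 0.00484, log2 fold change 3.23, SE 0.48). Its partner had 200, 122 and 199 CPM in disruptant libraries and 135, 165 and 99.0 CPM in control libraries, groups that overlapped (log2 fold change 0.39, edgeR adjusted p = 0.404). On the same scaffold, plus strand, positions 972404 to 972436, a start 1099 bp downstream had 4.33, 5.07 and 5.03 CPM in disruptant libraries and 1.00, 1.07 and 1.44 CPM in control libraries (edgeR adjusted p = 0.00372, log2 fold change 2.04, SE 0.29). Its partner had 156, 167 and 155 CPM in disruptant libraries and 155, 181 and 173 CPM in control libraries, so a steady strong promoter stood opposite an antisense start that rose. On DF126447.1, plus strand, positions 1604744 to 1604761, the log2 fold change was 2.43 (SE 0.40, edgeR adjusted p = 0.00752), and a sense-strand cluster 265 bp behind it rose by 2.57 on the log2 scale (edgeR adjusted p = 0.000796). On DF126449.1, plus strand, positions 128739 to 128769, it was 2.00 (SE 0.40, edgeR adjusted p = 0.0191), and the adjusted p passed 0.05 without disruptant library 2 (0.0604), disruptant library 3 (0.0515) or control library 2 (0.0718). A sense-strand cluster 330 bp behind this start was not called (log2 fold change 0.39, edgeR adjusted p = 0.653).

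**Figure D3:**
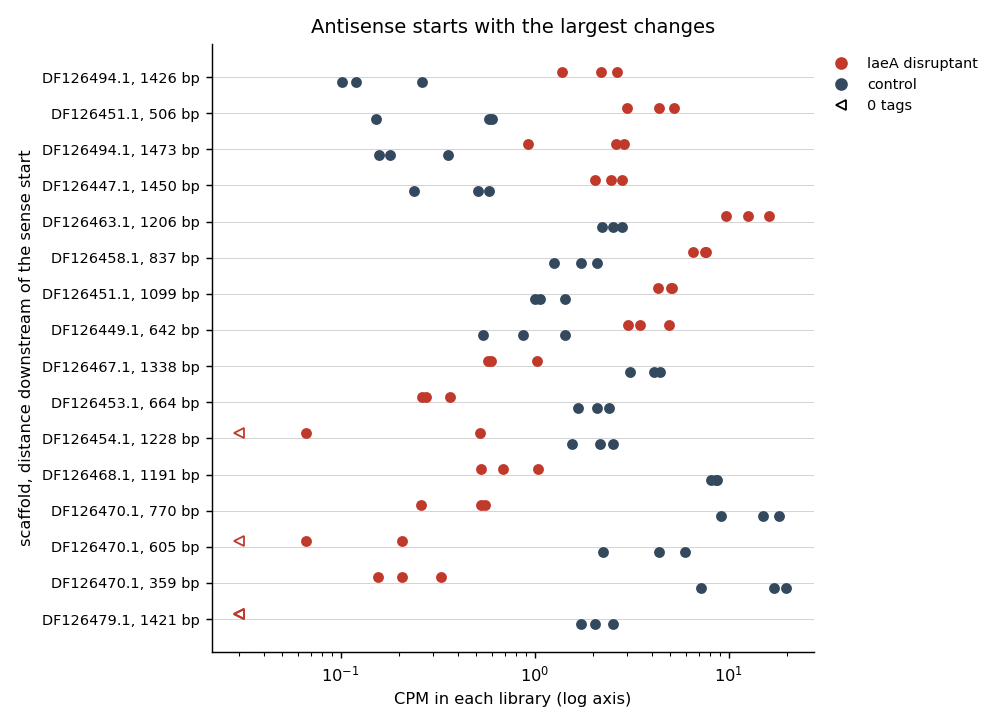
CPM in each library (log axis) of the 8 antisense starts with the largest rises, at the top, and the 8 with the largest falls, named by scaffold and distance downstream of the sense start, with disruptant libraries in red above control libraries in dark slate and 0 tags as open triangles at the left edge. The disruptant and control libraries do not overlap in any of them, which the choice of these 16 required.

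Antisense starts were called both with and without a called change of the sense promoter. Of the 425, 373 had a partner that was not called, and 42 of these were called (11.3%), 28 of them rises and 14 falls. Where the partner rose, in 38 pairs, 11 antisense starts rose (28.9%) and none fell. In 13 of the 38 pairs the partner averaged under 20 CPM in the control, so those pairs were formed through the disruptant. They held 8 of the 11 rises. In the other 25 pairs the partner averaged at least 20 CPM in both strains, and 3 antisense starts rose. Where the partner fell, in 14 pairs, 3 antisense starts fell (21.4%) and none rose. The sense partners themselves were called in 29 of 289 cases, 18 higher and 11 lower, with a median log2 fold change of 0.04. Across the 425 pairs the log2 fold changes of antisense start and partner had a Pearson correlation of 0.31 and a Spearman correlation of 0.24. Taking the nearest antisense start of each of the 289 partners, the values were 0.30 and 0.21. The pairs share the libraries and some share a partner, so these values are a description. For the 2265 pairs of the mirrored upstream window they were 0.67 and 0.25.

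**Figure D4:**
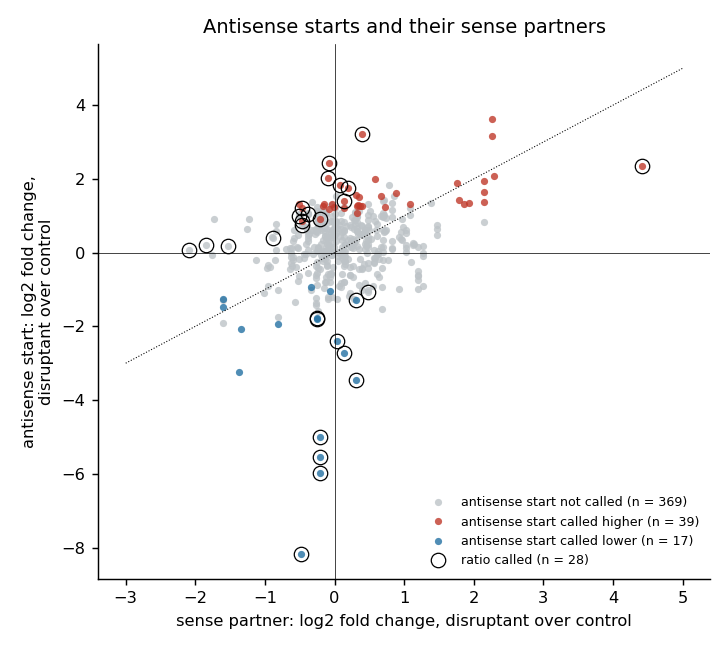
The log2 fold change (disruptant over control) of each antisense start against that of its sense partner, with antisense starts called higher (39) in red, lower (17) in blue and not called (369) in grey, rings around the 28 pairs whose ratio was called, and a dotted line of equal change. Of the 56 antisense starts called, 42 have a partner that was not called.

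Whether an antisense start changed by another factor than its partner was tested within each library, as an interaction of strand and genotype. The test was fitted over 21491 pairs, each of an antisense start and its partner or of another cluster and its nearest strong opposite-strand cluster. It called 28 of the 425 antisense pairs, 16 with a higher ratio of antisense to sense in the disruptant and 12 with a lower one (edgeR quasi-likelihood, adjusted p under 0.05 over all pairs). This is 6.59%, where 7.14% of all pairs were called, 3.39% higher and 3.76% lower, so the share was near the background and is not a result about these starts as a group. The median log2 change of the ratio was 0.16, against -0.05 over all pairs. The calls were 11 without disruptant library 1, 12 without disruptant library 2, 9 without disruptant library 3, 9 without control library 1 and 10 without control library 2, of which at most 3 were of a higher ratio in any of these fits. In these fits 2.35% to 4.38% of all pairs were called.

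The largest called falls of the ratio were the start on DF126479.1 and the 3 starts on DF126470.1 described above. The nearest of these 3 had 0.0453, 0.0899 and 0.0674 antisense tags per 100 sense tags in disruptant libraries and 4.55, 1.85 and 4.92 in control libraries (log2 change of the ratio -5.68, SE 0.53, edgeR adjusted p = 0.0015). Among the 4 largest of the 16 called rises of the ratio, on DF126451.1 and DF126447.1 the antisense start rose opposite a partner that was not called, with a log2 change of the ratio of 2.85 (SE 0.62, edgeR adjusted p = 0.0347) at positions 1388382 to 1388397 and of 2.48 (SE 0.44, edgeR adjusted p = 0.0164) at positions 1604744 to 1604761. On DF126485.1 and DF126452.1 the partner fell and the antisense start was not called. At positions 210193 to 210231 of DF126485.1 the antisense start had 2.87, 2.17 and 2.96 CPM in disruptant libraries and 2.32, 2.24 and 3.06 CPM in control libraries. Its partner had 13.7, 4.15 and 13.8 CPM in disruptant libraries and 41.1, 62.0 and 31.8 CPM in control libraries, and the ratio rose by 2.26 on the log2 scale (SE 0.51, edgeR adjusted p = 0.0398). That partner averaged 10.5 CPM in the disruptant and met the limit of 20 CPM through the control. The choice of pairs thus favours its fall and a rise of the ratio. At positions 1308226 to 1308252 of DF126452.1 the ratio rose by 2.22 (SE 0.51, edgeR adjusted p = 0.0424), with a partner that fell (edgeR adjusted p = 0.0153, log2 fold change -1.85, SE 0.35). On DF126463.1 both strands rose and the ratio fell to 7.80, 6.70 and 10.9 antisense tags per 100 sense tags in disruptant libraries, against 34.4, 35.9 and 30.4 in control libraries (log2 change -2.02, SE 0.29, edgeR adjusted p = 0.00736). The partner there averaged 7.49 CPM in the control and met the limit of 20 CPM through the disruptant. The choice of pairs thus favours its rise and a fall of the ratio.

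Of the 6 with the highest pooled level, all between 19.3 and 19.9 CPM, only that on DF126492.1, minus strand, positions 140708 to 140810, was called. It had 15.7, 13.0 and 10.3 CPM in disruptant libraries and 25.2, 25.6 and 24.1 CPM in control libraries (edgeR adjusted p = 0.03, log2 fold change -0.94, SE 0.21). The call was lost with library size alone as the scaling (edgeR adjusted p = 0.0693), and in 4 of the 6 fits that left out a library the adjusted p was 0.0759 to 0.132. Its sense partner, among the strongest of the 289, ranged over 2307 to 3896 CPM in disruptant libraries and 3286 to 4314 CPM in control libraries and was not called. The start on DF126454.1, position 12958, made of 1 position, had 25.3, 5.73 and 13.3 CPM in disruptant libraries and 31.6, 30.3 and 5.57 CPM in control libraries, a spread within each strain wider than the difference between strains (edgeR adjusted p = 0.608, log2 fold change -0.60, SE 0.65).

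At 4 antisense starts the pooled level was above 70% of that of the sense partner, so that strands were almost balanced. The highest share, 73.4%, belonged to positions 796917 to 797041 of DF126448.1, plus strand, with 19.1, 25.4 and 20.3 CPM in disruptant libraries and 18.7, 9.77 and 14.1 CPM in control libraries (edgeR adjusted p = 0.203, log2 fold change 0.61, SE 0.27). On DF126447.1, minus strand, positions 488567 to 488643, the antisense start exceeded its partner in control libraries 1 and 2, at 125 and 170 antisense tags per 100 sense tags, with 70.5 in control library 3. In disruptant libraries 1, 2 and 3 it had 65.9, 30.7 and 68.1. The partner there rose (edgeR adjusted p = 0.0349, log2 fold change 1.28, SE 0.30), and the change of the ratio was not called (edgeR adjusted p = 0.19). That partner averaged 13.7 CPM in the control and met the limit of 20 CPM through the disruptant, so the choice of pairs favours its rise. The others, on DF126453.1 and DF126464.1, had log2 fold changes of -0.15 and -0.05 and were not called.

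Most sense partners had 1 antisense start, and some had several in a row. A sense partner had 1 antisense start in 207 cases, 2 in 51, 3 in 17 and 4 or more in 14. The sense cluster at positions 344861 to 344964 of DF126452.1 had 7, between 827 and 1250 bp downstream, and 2 of them rose. All 7 had log2 fold changes of 0.59 to 1.26 and libraries that did not overlap between the strains, opposite a partner that was not called (edgeR adjusted p = 0.543, log2 fold change 0.33, SE 0.30). Every disruptant library lay above every control library in 16.3% of all clusters. The 7 lie close together opposite 1 partner, so they are not separate observations of the strains. The sense cluster at positions 398792 to 398990 of DF126470.1 also had 7, with log2 fold changes of 0.16 to 1.32, of which none was called. The 6 opposite positions 609309 to 609495 of DF126453.1 had log2 fold changes of -0.999 to 0.15, and none was called. Their partner rose (edgeR adjusted p = 0.0155, log2 fold change 1.20, SE 0.23). On DF126468.1, opposite a partner at positions 134923 to 135341 that rose (log2 fold change 2.14, edgeR adjusted p = 0.000733), 3 of 4 antisense starts rose, with log2 fold changes of 1.65, 1.94 and 1.37. That locus was chosen after its values were seen.

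Summed over all members, antisense starts made up a small part of each library. They held 0.216%, 0.196% and 0.174% of tags in disruptant libraries 1, 2 and 3 and 0.182%, 0.164% and 0.145% in control libraries 1, 2 and 3. The means were 0.195% ± 0.0211 in the disruptant and 0.163% ± 0.0185 in the control (SD, n = 3 each), and the groups overlapped (exact permutation test, two-sided p = 0.2). As a share of the tags outside scaffold DF126582.1, which holds no members, they made up 0.234%, 0.231% and 0.210% in disruptant libraries and 0.204%, 0.181% and 0.175% in control libraries. These shares did not overlap (exact permutation test, two-sided p = 0.1, the smallest possible). Set against the summed tags of the 289 partners, there were 4.95, 4.90 and 4.76 antisense tags per 100 sense tags in disruptant libraries and 4.53, 4.01 and 4.18 in control libraries. Every disruptant value was above every control value, which gives p = 0.1 in the exact two-sided permutation test, the smallest that 3 against 3 allows. The difference in the log2 of the summed ratio was 0.20. The median of the log2 ratio over pairs, taken in each library, differed by 0.01 between the strains (exact permutation p = 1). The median of the pairs' own log2 changes was 0.16, as given above.

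**Figure D5:**
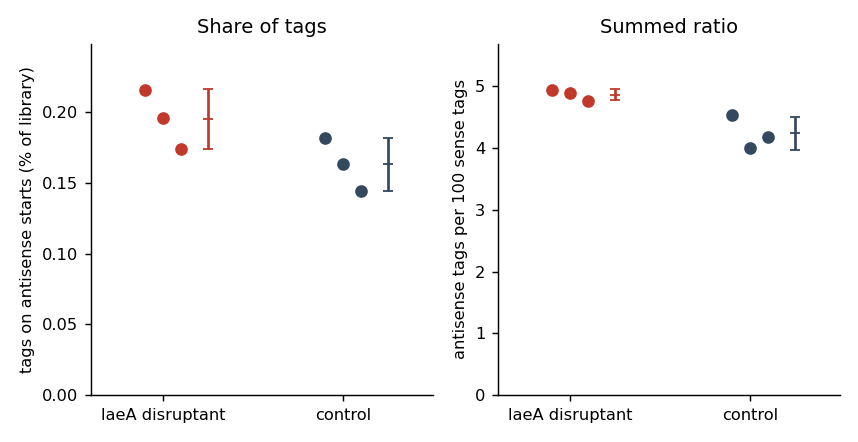
Per library, the share of tags on antisense starts (%, left) and the antisense tags per 100 tags of the sense partners (right), for 3 disruptant and 3 control libraries, with the mean and SD beside the points. The shares of all tags overlap between the strains (those outside scaffold DF126582.1 do not), while the summed ratios are 4.76 to 4.95 in the disruptant and 4.01 to 4.53 in the control.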

How the data were processed

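CAGE was run on total RNA of mycelia, with 3 laeA disruptant and 3 control libraries. The deposited table holds raw tag counts per start position and strand for 8582186 positions. The submitters' processing notes name FastQC, BWA and bedtools. The genome build, tag filters and the handling of multiply mapped tags are not given in the sources used here. Positions count from 0 in the table and are printed from 1, on GenBank scaffolds. No genome of that build was used, so no sequence is shown. Libraries were grouped by title.

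A cluster's level counts all tags between its outer positions. Levels in CPM use TMM-scaled library sizes, and pooled CPM uses all tags. Clusters of at least 1 CPM on every scaffold were tested with edgeR 4.0.16 in R 4.3.3 (filterByExpr, quasi-likelihood F test, Benjamini-Hochberg adjustment, calls under 0.05), and standard errors come from each estimate and F statistic. The ratio test has library, strand and strand by genotype terms. Members were paired with the partner of the rule and other clusters with the nearest one. Single values per library were compared by exact permutation tests (SciPy 1.17.1). Alternatives used limma 3.58.1 and DESeq2 1.42.0. The steps were tested on simulated data.

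The members, groupings and comparisons were chosen with earlier results of these data known. Starts named are the 8 largest rises and 8 largest falls among calls without overlap and with at least 2 CPM in the higher strain, the 6 of highest level, the 4 largest rises and 4 largest falls of the ratio, the 4 highest ratios and the partners with the most members.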

Additional observations from a re-analysis of the deposited data

How the results depend on the processing

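The count of 56 antisense starts called in level fell to 32 with at least 10 tags in every library, where 373 were tested, and to 20 at an adjusted p under 0.01. Among the 205 starts built from positions of 0.5 CPM or more it was 24. It ranged from 24 to 60 when each library was left out. The cause was not tested. With the replicate number as a block it was 25, 14 rises and 11 falls, all among the 56. Same-numbered libraries did not all deviate together (correlations of their deviations 0.47, -0.42 and -0.09). Pairs of other numbers ran from -0.70, for disruptant library 1 and control library 3, to 0.69, for disruptant library 2 and control library 3. With 3 libraries per strain these values cannot settle whether libraries were paired or shared a source of variation. Under the other alternatives it was 40 to 78, with 78 in DESeq2 and 74 with the share of tags on scaffold DF126582.1 as a term. The share of all clusters called moved too, from 8.11% in the main fit to 11.9% in DESeq2 and 12.2% with that term. It was 6.18% with at least 10 tags in every library, 4.51% with the block and 3.00% at an adjusted p under 0.01. The values of 40, 54 and 53, for only the nearest start of each partner, without starts of 1 position and without starts near a strong cluster on their strand, were chosen after seeing the data. The median log2 fold change stayed above 0 in each setting where it was computed.

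The 28 calls of the ratio were 27 with limma, 7 with the replicate block in limma, 8 at an adjusted p under 0.01 and 9 to 30 when each library was left out. The share of all pairs called was 7.08% with limma, 2.56% with the block and 2.20% at an adjusted p under 0.01. It was 2.35% to 8.89% when each library was left out. The number of antisense starts, 425, was 205 with positions of at least 0.5 CPM, 228 with sense clusters of at least 50 CPM, 214 with a window of 300 to 1000 bp and 543 with totals that leave out scaffold DF126582.1. The difference in the share of tags, 0.0322 percentage points, was 0.0383 over tags outside scaffold DF126582.1. It ranged from 0.0219 to 0.0430, and the difference in the log2 summed ratio, 0.20, from 0.16 to 0.25, when each library was left out. For the named starts, 390 recomputed values kept their side of the threshold, 17 lost the call and none changed the direction of a called change. Depth limits the weakest starts, where the floor of 3 tags is 0.153 to 0.207 CPM against a lowest pooled level of 1.01 CPM.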

Other observations

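The same window also held opposite-strand clusters outside the level limits of the antisense starts. There were 45 of at least 20 CPM, so that a strong start faced another strong start, and 1235 under 1 CPM. Of the 45 strong ones, 3 rose and 1 fell in the disruptant (edgeR quasi-likelihood, adjusted p under 0.05), which is 8.89% where 8.11% of all clusters were called, and their median log2 fold change was 0.15. The rise with the tightest libraries was on DF126449.1, plus strand, positions 665451 to 665502, with 40.6, 41.5 and 44.0 CPM in disruptant libraries and 22.5, 21.8 and 24.9 CPM in control libraries (edgeR adjusted p = 0.0185, log2 fold change 0.86, SE 0.17). The fall was on DF126449.1, minus strand, positions 861836 to 862053, with 10.1, 23.7 and 17.1 CPM in disruptant libraries and 53.1, 34.8 and 51.1 CPM in control libraries (edgeR adjusted p = 0.0279, log2 fold change -1.45, SE 0.32). The cluster that fell averaged 17.0 CPM in the disruptant, so it met the limit of 20 CPM through the control. Neither of their sense partners was called (log2 fold changes 0.11 and 0.20). These starts were looked at after the results above were known.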
